A study of Mus musculus with 8 samples.

Results

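Crispld1, Bag2, Pltp, Syt11, Rgma, Kcnj15 and Cntn2 are 7 genes outside the classical targets of Hedgehog signalling that were higher when nephron progenitors carried an active form of Smo. They are 7 of the 24539 genes counted, and all 7 were among the 13459 genes tested. The genes were picked on measured values, namely their levels in the libraries with active Smo and in the wild-type libraries, so that difference is described below and not tested. Kcnj15 and Cntn2 had also been seen to follow the order of the 4 genotype groups.

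Nephron progenitors were sorted by FACS from mouse kidneys at E18.5, and their polyadenylated RNA was sequenced. All 8 libraries carried Six2GFPcre, a transgene that makes a fusion of GFP and Cre in Six2-expressing progenitors, so recombination was directed to those cells and their descendants. The KO-labelled group was Smo c/c, the Het-labelled group Smo c/+ and the WT-labelled group Smo +/+, where c is read as the conditional allele that Cre deletes. The SmoM2-labelled group was Smo +/+ with Rosa26 SmoM2/+, an allele that makes a constitutively active Smo once Cre has acted. Each group had 2 libraries. The labels number the replicates without saying that they came from separate embryos, so p-values measure the spread between these libraries, which may be technical.

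Smo was read first, as a check of the labels. Levels are in CPM, counts scaled to a common library size, and are given for KO-, Het-, WT- and SmoM2-labelled libraries in that order. Smo was at 12.1 ± 1.39, 19.2 ± 6.73, 369 ± 8.48 and 617 ± 17.1 CPM (SD, n = 2 each). Smo in the Het-labelled pair thus lay near its KO-labelled level, against the label, and every direction below is between libraries as labelled. Total counts per library ran from 4422305 to 10305398, with the 2 smallest totals in the KO-labelled group. The KO-labelled libraries both had the male pattern of Xist and Y-linked counts and the Het-labelled libraries both had the female pattern, while the other groups held 1 library of each. All 10 nephron progenitor markers had counts in all 8 libraries, with a summed level of 3790 to 5904 CPM. Endothelial markers summed to at most 3.40 CPM, and the neural marker Dbh had no count in any library.

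In Hedgehog signalling, a secreted ligand binds Patched, which then no longer holds Smo inactive, and Smo in turn switches the Gli transcription factors from repressors to activators. Ptch1, Gli1 and Hhip are the textbook readouts of this pathway in many tissues. In the kidney, Hedgehog ligand comes from the collecting duct and the ureter and is best known for its action on the surrounding mesenchyme. The 7 genes have other roles. Crispld1 encodes a secreted protein of the CAP superfamily, and Pltp encodes a secreted phospholipid transfer protein that moves lipid between lipoproteins. Bag2 is a co-chaperone of Hsp70 that inhibits the ubiquitin ligase CHIP, and Syt11 is a synaptotagmin that acts in vesicle traffic without the calcium binding typical of its family. Rgma and Cntn2 are both held on the cell surface by a GPI anchor. Rgma is a ligand of neogenin and a co-receptor for BMP ligands, and Cntn2 is an adhesion protein of the immunoglobulin superfamily. Kcnj15 encodes the inward rectifier potassium channel Kir4.2.

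All 7 are protein-coding genes, and 3 of them lie on chromosome 1, far apart from one another. Coordinates are from GENCODE on GRCm38, the assembly also called mm10, which is the build named in the submitters' processing notes. Crispld1 lies at chr1:17727045-17766344 on the plus strand with 15 merged exons, Bag2 at chr1:33745484-33757795 on the minus strand with 3, and Cntn2 at chr1:132509427-132543256 on the minus strand with 26. Pltp lies at chr2:164839518-164857711 on the minus strand with 15, and Syt11 at chr3:88744700-88775164 on the minus strand with 6. Rgma lies at chr7:73375509-73419899 on the plus strand with 5, and Kcnj15 at chr16:95257558-95300260 on the plus strand with 7.

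RefSeq promoters on GRCm38.p6, each 300 bases long with 250 before the transcription start, were at hand for 5 of the 7 genes, namely Bag2, Pltp, Syt11, Kcnj15 and Cntn2. The Gli consensus GACCACCCA was searched on both strands. It occurs exactly in 83 of 32851 promoters of this length (0.253%) and with at most 1 mismatch in 2214 (6.74%). None of the 5 promoters held it exactly or with 1 mismatch, and neither did those of Ptch1 and Hhip. A missing match says only that these letters are not in this window. Its inner letters CCACCC, chosen after the longer search came back empty and searched on both strands, occur in 31.5% of all promoters. They were in the promoters of Bag2 (2 matches), Pltp (1), Kcnj15 (1) and Cntn2 (2) and not in that of Syt11. The promoter of Ptch1 had 0 matches to CCACCC and that of Hhip had 1, so nothing about Gli is read from these letters. The GC box GGGCGG, also searched on both strands and present in 35.7% of all promoters, was in the promoters of Bag2, Pltp and Syt11. It was also in those of Ptch1 and Hhip. Matches to the short motifs did not overlap in the sequences shown. Shown are Bag2 and Kcnj15, which have the highest and the lowest GC content of the 5, and Pltp, which had the largest falls against the WT-labelled libraries among the genes with enough counts for a fold. They are the 250 bases before the RefSeq start, which can differ from the GENCODE gene end, 5′ to 3′ on the strand of the gene, with matches to CCACCC and GGGCGG, on either strand, in capitals. The stretches are chr1:33757751-33758000 on the minus strand for Bag2, chr2:164857709-164857958 on the minus strand for Pltp and chr16:95257308-95257557 on the plus strand for Kcnj15.
Bag2: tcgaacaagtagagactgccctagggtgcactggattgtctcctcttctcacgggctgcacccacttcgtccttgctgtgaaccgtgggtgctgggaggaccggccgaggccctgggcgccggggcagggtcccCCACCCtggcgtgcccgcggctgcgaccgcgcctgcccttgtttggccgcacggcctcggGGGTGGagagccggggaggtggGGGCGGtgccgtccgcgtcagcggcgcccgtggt
Pltp: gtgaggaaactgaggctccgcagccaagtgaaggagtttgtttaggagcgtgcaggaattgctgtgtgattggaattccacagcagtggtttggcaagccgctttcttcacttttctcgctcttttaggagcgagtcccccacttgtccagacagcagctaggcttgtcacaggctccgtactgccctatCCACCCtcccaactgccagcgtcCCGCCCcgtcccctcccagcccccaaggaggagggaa
Kcnj15: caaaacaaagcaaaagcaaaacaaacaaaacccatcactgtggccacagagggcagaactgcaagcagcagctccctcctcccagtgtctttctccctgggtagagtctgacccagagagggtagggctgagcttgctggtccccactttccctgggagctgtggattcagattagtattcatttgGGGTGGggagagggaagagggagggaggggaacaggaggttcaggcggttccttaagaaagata

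Bag2 has a GC-rich start with 73.3% GC and 35 CpG dinucleotides in the 300 bases, and its matches begin 116, 56 and 34 bases before the start. Pltp has 59.0% GC and 13 CpG, with matches 60 and 37 bases before the start. Kcnj15 has 49.7% GC and 2 CpG, with its match 64 bases before the start. The median over all promoters is 52.7% GC and 7 CpG, so these promoters ranged from below to above the usual CpG count.

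The 2 secreted proteins, Crispld1 and Pltp, were low in the KO- and Het-labelled libraries, intermediate in the WT-labelled and highest in the SmoM2-labelled libraries. Replicates 1 and 2 of Crispld1 were at 17.9 and 21.1 CPM (KO-labelled), 18.6 and 19.7 (Het-labelled), 82.5 and 112 (WT-labelled), and 182 and 194 (SmoM2-labelled). Pltp was at 6.64 and 2.39 CPM, 4.54 and 6.11, 68.3 and 96.0, and 196 and 197 in the same order. For both genes the KO- and Het-labelled values overlapped each other and lay far below both WT-labelled values. Fewer cells that express a gene and less of its RNA per cell cannot be told apart in such bulk samples. Crispld1 was 4.97-fold lower in the KO-labelled than in the WT-labelled libraries (log2 change -2.31, SE 0.18, edgeR adjusted p 3.67e-05) and 5.08-fold lower in the Het-labelled (log2 change -2.34, SE 0.17, edgeR adjusted p 3.19e-05). Pltp had the largest falls of the 7 genes among those with enough counts for a fold, with log2 changes of -4.18 (SE 0.31, edgeR adjusted p 3.42e-05) and -3.96 (SE 0.28, edgeR adjusted p 3.19e-05). Both comparisons use the WT-labelled libraries, which also helped to choose the genes, and they share those libraries with each other. Each of the 4 calls held in all 16 alternative analyses.

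The 2 intracellular proteins, Bag2 and Syt11, had smaller differences outside the SmoM2-labelled group. Syt11 was at 16.6 and 13.1 CPM, 18.3 and 20.6, 26.7 and 27.6, and 49.3 and 55.7 from KO- to SmoM2-labelled libraries. The 4 groups of Syt11 did not overlap and lay in the order of the levels of Smo. In KO- against WT-labelled libraries Syt11 fell by 0.87 on the log2 scale (SE 0.18, edgeR adjusted p 0.00697), while the Het-labelled difference of -0.48 did not pass the threshold of 0.05 (SE 0.17, edgeR adjusted p 0.0572). Bag2 was at 25.2 and 24.8 CPM, 29.9 and 29.9, 32.7 and 30.7, and 55.0 and 64.6 in the same order. The SmoM2-labelled pair of Bag2 was the highest, and the other 6 libraries lay between 24.8 and 32.7 CPM. Its differences from the WT-labelled libraries were -0.34 in the KO-labelled (SE 0.15, edgeR adjusted p 0.122) and -0.08 in the Het-labelled libraries (SE 0.14, edgeR adjusted p 0.697), and neither passed the threshold.

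Rgma, one of the surface proteins, had another order from the other 6 genes. Its levels were 42.5 and 44.4 CPM (KO-labelled), 72.2 and 72.5 (Het-labelled), 49.4 and 44.8 (WT-labelled), and 106 and 77.5 (SmoM2-labelled). The Het-labelled pair lay above both the KO- and the WT-labelled pairs, and the SmoM2-labelled libraries differed from each other by more than the libraries of any other group. Rgma was higher in the Het-labelled than in the WT-labelled libraries by 0.62 on the log2 scale (SE 0.15, edgeR adjusted p 0.0143). The KO-labelled libraries differed from the WT-labelled by -0.12 (SE 0.16, edgeR adjusted p 0.633). Both comparisons use the WT-labelled libraries, which also helped to choose Rgma. A WT-labelled level low by chance would enlarge the Het-labelled rise as well as the difference that chose the gene. The call in the Het-labelled libraries was lost without either Het-labelled library or without WT-labelled replicate 2, with edgeR adjusted p between 0.0814 and 0.0906.

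Cntn2 and Kcnj15 were rare transcripts, with no more than 1 count in each of the 4 libraries labelled KO or Het. From KO- to SmoM2-labelled libraries, Cntn2 had 0 and 1, 1 and 1, 11 and 13, and 38 and 57 counts. Kcnj15 had 0 and 0, 0 and 1, 5 and 7, and 57 and 46. Both therefore passed the filter on low counts only through the groups in which they were high. With 24 WT-labelled counts against 1 KO-labelled count, the level of Cntn2 was 11.0 times as high per scaled library (exact 95% interval 1.79 to 452, counting error only). Against the 2 Het-labelled counts the ratio was 8.06 (2.00 to 70.3). In the fit across all genes Cntn2 passed the threshold in the KO- against WT-labelled (edgeR adjusted p 0.0374) and the Het- against WT-labelled comparison (edgeR adjusted p 0.0277), but not by DESeq2, which gave adjusted p of 0.111 and 0.0680. Kcnj15 passed it in neither, with edgeR adjusted p of 0.0531 and 0.0823. Its mean WT-labelled level of 0.614 CPM lay below the 0.659 CPM that 3 counts are worth in the KO-labelled libraries, so the depth allowed no fold there. In the SmoM2-labelled libraries Kcnj15 was at 5.57 ± 0.362 CPM and Cntn2 at 5.24 ± 1.91 CPM.

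**Figure D1:**
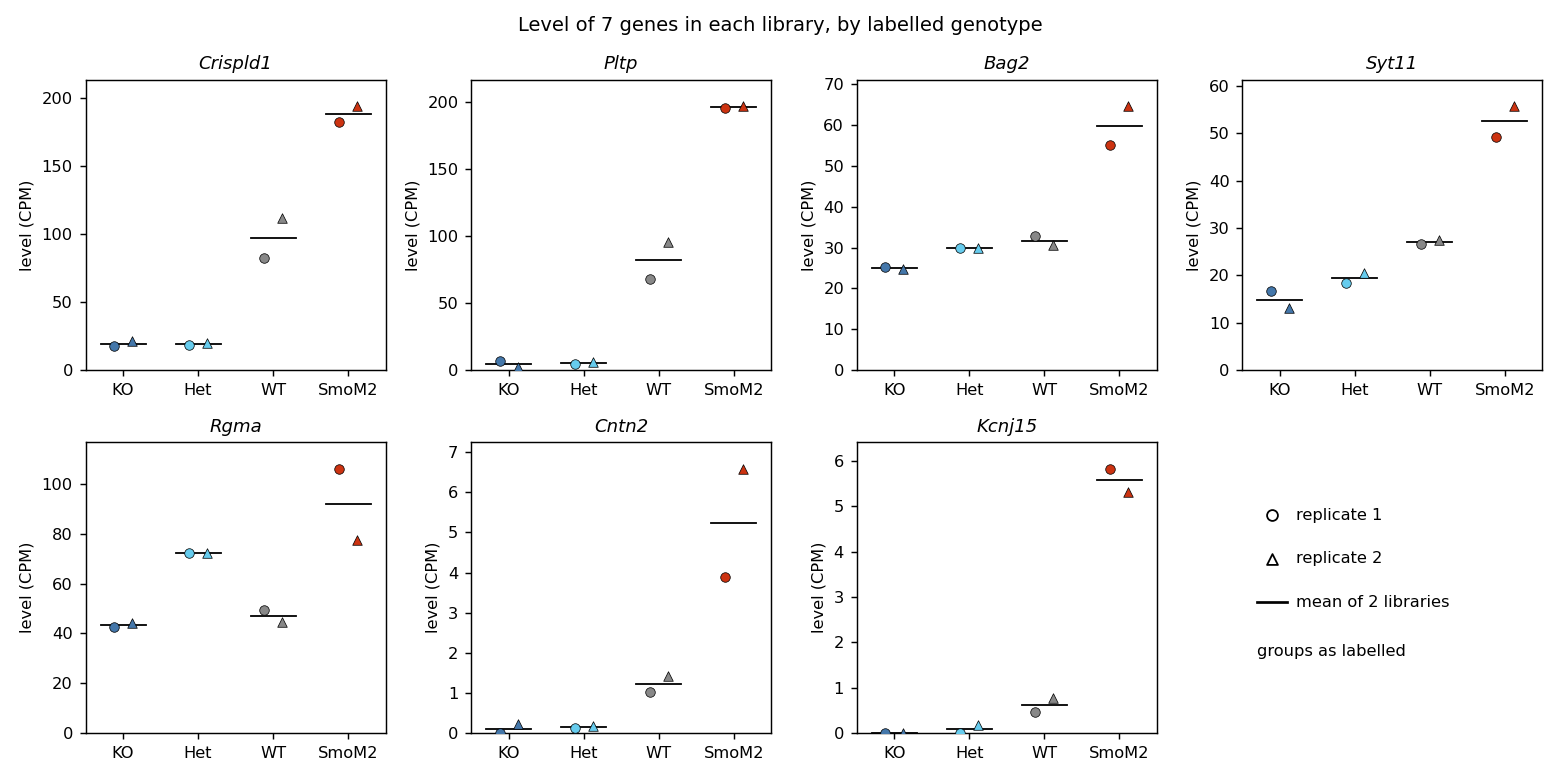
Level of each of the 7 genes in each library, in CPM on axes that start at 0, by labelled genotype; circles are replicate 1, triangles replicate 2 and lines the mean of 2 libraries. Crispld1 and Pltp lie near the bottom in the KO- and Het-labelled libraries (at most 21.1 and 6.64 CPM), Rgma has a Het-labelled mean above its WT-labelled mean, and all 7 genes are highest in the SmoM2-labelled libraries.

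The contrast between KO- and Het-labelled libraries shares no library with the SmoM2- against WT-labelled difference that chose the genes, although the order noted for Kcnj15 and Cntn2 includes its libraries. It asks what differs when the second Smo allele is also conditional. Of the 7 genes, 1 was called lower in the KO-labelled libraries, beside 5.1% of all tested genes, and 0 were called higher, beside 4.33%. The called gene was Rgma, with a log2 change of -0.73 (SE 0.16, edgeR adjusted p 0.0208), which is 1.66-fold lower. DESeq2 also called it (adjusted p 0.00248) and called no other of the 7. The call was lost when any 1 of the 4 libraries compared was left out, at edgeR adjusted p of 0.0650 to 0.124, with the log2 change between -0.77 and -0.71. The 2 groups also differ completely in sex, so sex and genotype cannot be separated within this comparison. With a term for sex fitted over all 8 libraries the Rgma change was -1.04 (edgeR adjusted p 0.0115). That term rests only on the WT- and SmoM2-labelled groups, where sex goes with the replicate number. The value thus assumes the same sex difference in the KO- and Het-labelled libraries, which was not tested. Early nephron markers moved with this comparison as well, since 5 of 8 were called higher in the KO-labelled libraries, beside 4.33% of all tested genes. Their sum was 1040 to 1272 CPM there against 504 to 730 CPM in the Het-labelled libraries. Their part in the Rgma difference was not tested.

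The other genes gave no call between KO- and Het-labelled libraries. Crispld1 differed by 0.03 on the log2 scale (SE 0.19, edgeR adjusted p 0.941) and Pltp by -0.22 (SE 0.40, edgeR adjusted p 0.765). Bag2 differed by -0.26 (SE 0.15, edgeR adjusted p 0.308) and Syt11 by -0.39 (SE 0.19, edgeR adjusted p 0.209). For Cntn2 and Kcnj15 both groups were at or under the floor of 3 counts per library, so no difference was detectable at this depth. The median change was -0.39 over the fitted values of all 7 genes and -0.26 over the 5 above the floor, beside 0.02 over all tested genes. Of the genes called over the whole table, 45.9% were higher in the KO-labelled libraries, or 64.7% with the library totals implied by the RPKM values and 35.8% with DESeq2.

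Side by side, 4 of the 7 genes were called lower in the KO-labelled than in the WT-labelled libraries (Crispld1, Pltp, Syt11 and Cntn2), beside 11.4% of all tested genes, and 0 were called higher, beside 11.6%. In the Het- against WT-labelled comparison 3 were called lower (Crispld1, Pltp and Cntn2), beside 12.2%, and 1 was called higher (Rgma), beside 13.1%. With DESeq2 these counts were 3 lower, and 2 lower and 1 higher. Without either Het-labelled library, or without WT-labelled replicate 2, the Het-labelled counts were 2 lower and 0 higher. The median change over the fitted values of all 7 was -2.31 and -2.34, and over the 5 with enough counts -0.87 and -0.48, beside 0.03 and -0.02 over all tested genes. Both comparisons use the WT-labelled libraries, which also helped to choose the genes, and a WT-labelled level low by chance would favour the rise of Rgma. Cntn2 and Kcnj15 were tested only through the libraries in which they were high. For these reasons the counts and medians are descriptions of the 7 genes.

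Between SmoM2- and WT-labelled libraries, the difference that chose the genes, 6 of the 7 were past the threshold in the higher direction, beside 0.156% of all tested genes, and 0 in the lower direction, beside 0.0669%. Nothing is read from that count. The log2 difference was 0.95 for Crispld1 (SE 0.15), 0.91 for Bag2 (SE 0.14), 0.95 for Syt11 (SE 0.16), 0.96 for Rgma (SE 0.15) and 1.26 for Pltp (SE 0.21). Thus 4 genes of different roles lay near a doubling, and Kcnj15 and Cntn2 had the larger differences of 3.17 (SE 0.51) and 2.09 (SE 0.47) on few counts. By p-value the genes ranked 9 (Bag2), 10 (Crispld1), 12 (Rgma), 16 (Syt11), 17 (Kcnj15), 18 (Pltp) and 56 (Cntn2) among the genes higher in the SmoM2-labelled libraries. The last gene inside the threshold was Sox9 (log2 1.15) and the first outside it was Ackr3 (log2 0.73), while Cntn2 lay outside. Of all genes past the threshold 70.0% were higher, or 59.3% with the totals implied by RPKM. The number of the 7 genes past it was 1 without KO-labelled replicate 1, without KO-labelled replicate 2 or without SmoM2-labelled replicate 2, 2 without WT-labelled replicate 2, and 0 without WT-labelled replicate 1 or SmoM2-labelled replicate 1.

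**Figure D2:**
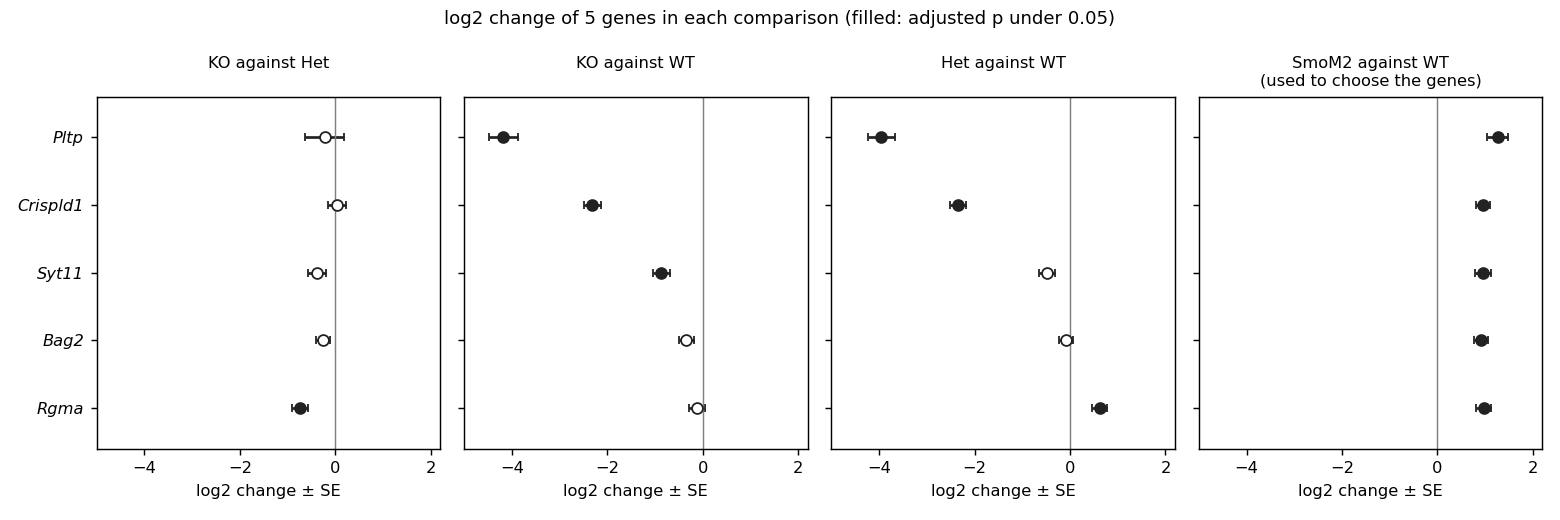
Log2 change with its SE (edgeR) of the 5 genes with enough counts, in each of 4 comparisons of labelled groups; filled points have an adjusted p under 0.05. Pltp and Crispld1 lie far to the left in both comparisons with the WT-labelled libraries (-4.18 and -2.31 in the KO-labelled) and near 0 between KO- and Het-labelled libraries, where Rgma is the filled point.

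The genes differed in where along the genotypes their level changed. On log2 CPM with a prior count of 2, Pltp had steps of 3.87 from the Het- to the WT-labelled mean and 1.28 from the WT- to the SmoM2-labelled mean, and Crispld1 of 2.31 and 0.97. These 2 genes thus had their larger step between the Het- and WT-labelled libraries, as did Smo itself (4.29 and 0.74) and Gli1 (3.07 and 1.27). Ptch1 (1.08 and 1.18) and Hhip (2.81 and 3.98) had the larger step between the WT- and SmoM2-labelled libraries. Bag2 had steps of 0.08 and 0.91, after a step of 0.25 from the KO- to the Het-labelled mean. Its largest step thus lay between the WT- and SmoM2-labelled libraries, the difference that chose the genes. Syt11 had steps of 0.48 and 0.94, Cntn2 of 1.83 and 1.86 and Kcnj15 of 1.36 and 2.75, the last 2 being held down by the prior count. Rgma had steps of -0.62 and 0.94.

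Measured as the root mean square difference of centred log2 CPM over the 8 libraries, the closest pair among the 7 was Bag2 and Syt11 (0.26), followed by Bag2 and Rgma (0.33) and Crispld1 and Cntn2 (0.40). Pltp and Rgma were the farthest apart (2.28). The same measure over 12458 genes named the genes most like each one. Pltp was nearest to Smo (0.40). Crispld1 was nearest to Eps8 (0.28), an actin regulator, and AW551984 (0.33). Bag2 was nearest to Daam1 (0.10), a formin, and Mical2 (0.15), and Syt11 to Frem1 (0.18), an extracellular matrix protein, and Casq1 (0.18). Rgma was nearest to Tmem173 (0.19) and Myc (0.20), Cntn2 to Eps8 (0.37) and Crispld1 (0.40), and Kcnj15 to Cntn2 (0.47) and Nell2 (0.61). The distances are smallest for the genes that changed least, and all share the same 8 libraries.

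Per gene length, Pltp was the most abundant of the 7 in the WT-labelled libraries, at a mean of 37.1 RPKM, a level per gene length and depth, followed by Crispld1 at 19.8, Bag2 at 14.3, Rgma at 10.8 and Syt11 at 4.86 RPKM. Cntn2 and Kcnj15 were at 0.104 and 0.0914 RPKM. Among the tested genes these WT-labelled levels ranged from the 87.1 percentile for Pltp to the 0.476 percentile for Kcnj15. In the KO-labelled libraries the order was another, with Bag2 at 11.8 and Rgma at 10.4 RPKM above Crispld1 at 4.16, Syt11 at 2.77 and Pltp at 2.13 RPKM. In the SmoM2-labelled libraries Pltp reached 86.8 RPKM, at the 95.9 percentile, and Kcnj15 0.814 RPKM, at the 12.3 percentile.

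The relatives and partners of each gene were then counted, from 7 lists of 94 genes, of which 62 were tested. The lists were drawn up by family and partnership, but with earlier results of these data known. In SmoM2- against WT-labelled libraries edgeR called 0 of these 62 (9 had an unadjusted p under 0.05) and DESeq2 called 1. Calls were made in the other comparisons. In KO- against WT-labelled libraries 9 of the 62 (14.5%) were called higher, beside 11.6% of all tested genes, and 13 (21.0%) lower, beside 11.4%. In Het- against WT-labelled libraries 2 (3.23%) were called higher, beside 13.1%, and 9 (14.5%) lower, beside 12.2%. In KO- against Het-labelled libraries 2 (3.23%) were called higher, beside 4.33%, and 5 (8.06%) lower, beside 5.1%. These counts moved when a library was left out. The 9 higher in the KO-labelled libraries became 3 without WT-labelled replicate 1 and 5 without either KO-labelled or either Het-labelled library. The 9 lower in the Het-labelled libraries became 5 without Het-labelled replicate 1, and the 2 higher became 1 without Het-labelled replicate 2 or WT-labelled replicate 2. Between KO- and Het-labelled libraries the counts became 0 and 0 without Het-labelled replicate 1, 1 and 2 without Het-labelled replicate 2, 1 and 0 without KO-labelled replicate 1, and 2 and 1 without KO-labelled replicate 2. Early nephron markers moved with the KO- against WT-labelled comparison too, with 6 of 8 called higher, beside 11.6% of all tested genes. Their sums were 1040 to 1272 CPM against 469 to 568 CPM in the WT-labelled libraries. The part of these markers in the list counts was not tested. The signs of the calls named below held in every alternative analysis that could test the gene.

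Among lipid transfer and lipoprotein genes, the list around Pltp, 3 of 11 tested genes fell in the KO-labelled against the WT-labelled libraries and 1 rose, beside 11.4% and 11.6% of all tested genes. The fallers were Abca1 and Abcg1, the transporters that export cholesterol and phospholipid to lipoproteins, and Mylip, the ubiquitin ligase that degrades lipoprotein receptors. Abca1 went from 102 CPM in the WT-labelled to 13.2 CPM in the KO-labelled libraries (log2 -2.96, SE 0.27, edgeR adjusted p 0.000101), and Abcg1 from 13.4 to 2.74 CPM (log2 -2.28, edgeR adjusted p 0.00078). The Het-labelled changes were -2.62 and -1.93, and both genes kept their calls in every alternative that tested them. Mylip fell by 0.55 on the log2 scale in the KO-labelled libraries, a call that was lost without either KO-labelled library or without WT-labelled replicate 2. Lipg, endothelial lipase, rose by 1.78 (edgeR adjusted p 0.0186), a call that was lost without KO-labelled replicate 2 or without WT-labelled replicate 1. In the Het-labelled libraries Apoe also fell (log2 -0.80, edgeR adjusted p 0.0145), which made 4 of 11 lower, beside 12.2% of all tested genes. Apoe and Mylip both lost that call without either Het-labelled library or without WT-labelled replicate 2, which left 2 of 11 lower. The list median was -0.25 in the KO-labelled and -0.08 in the Het-labelled comparison. In the KO- against WT-labelled comparison Apoe (-0.36, edgeR adjusted p 0.209) and Lpl (0.55, edgeR adjusted p 0.323) gave no call. The RNA of the liver X receptors, nuclear receptors known to activate Pltp and several genes of this list, gave no call in the KO-labelled libraries either. The changes were -0.25 for Nr1h2 (edgeR adjusted p 0.226) and 0.12 for Nr1h3 (edgeR adjusted p 0.938). Nr1h3 lay near the floor there, at 0.664 CPM where 3 counts are worth 0.659 CPM. The activity of these receptors was not measured, and their part in the falls was not tested. Abca1 and Abcg1 differed by 0.44 and 0.76 between SmoM2- and WT-labelled libraries (edgeR adjusted p 0.707 and 0.34), neither past the threshold.

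Around Rgma, 7 of 10 tested RGM partners and BMP receptors fell in the KO-labelled against the WT-labelled libraries and 0 rose, beside 11.4% and 11.6% of all tested genes, with a list median of -0.73. They were the neogenin gene Neo1 (log2 -0.73, SE 0.13, edgeR adjusted p 0.00311), the netrin receptor gene Unc5c (-0.81), and the BMP and activin receptor genes Bmpr1a (-0.71), Bmpr2 (-1.03), Acvr1 (-1.02), Acvr2a (-0.72) and Acvr2b (-0.79). Rgmb, the closest relative of Rgma, differed by -0.27 (edgeR adjusted p 0.224). Without KO-labelled replicate 1 the count was 4 of the 7. In the Het-labelled libraries 3 of 10 fell (Bmpr1a, Bmpr2 and Acvr1), or 1 without Het-labelled replicate 1, and 2 without any 1 of Het-labelled replicate 2, WT-labelled replicate 1 and WT-labelled replicate 2. Over all tested genes 12.2% were lower in the Het-labelled than in the WT-labelled libraries. Rgma itself was 0.62 higher on the log2 scale in the Het-labelled libraries, as given above.

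Of 12 tested BAG proteins and Hsp70 partners, 5 rose in the KO-labelled against the WT-labelled libraries and 0 fell, beside 11.6% and 11.4% of all tested genes. They were Bag1 (log2 0.58), Stub1 (0.51), which encodes the CHIP ligase that Bag2 inhibits, and the Hsp70-linked genes Hspbp1 (0.47), Hspa4 (0.45) and Dnajb1 (0.41), with edgeR adjusted p from 0.0206 to 0.0404. The count was 0 without WT-labelled replicate 1, 1 without KO-labelled replicate 1 or either Het-labelled library, and 2 without any 1 of the other 4 libraries. Hspa8, the constitutive Hsp70, differed by -0.07. In the Het-labelled libraries 1 of 12 rose (Dnajb1, 0.47), and Dnajb1 lost that call without any 1 of the Het- and WT-labelled libraries. Over all tested genes 13.1% were higher in the Het-labelled than in the WT-labelled libraries. The list median was 0.20 in the KO- and 0.26 in the Het-labelled comparison, while Bag2 lay at -0.34 and -0.08.

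Among 11 tested synaptotagmins, 2 rose (Syt2, log2 2.08, and Syt9, 1.31) and 2 fell (Syt7 and Syt12) in the KO-labelled against the WT-labelled libraries. Over all tested genes 11.6% rose and 11.4% fell in that comparison. Syt7, a calcium sensor of lysosome and vesicle fusion, went from 55.9 CPM in the WT-labelled to 26.8 CPM in the Het-labelled and 14.2 CPM in the KO-labelled libraries, and was lower in all 3 comparisons (KO against WT: log2 -1.98, SE 0.20, edgeR adjusted p 0.000197). Between KO- and Het-labelled libraries its call was lost with the sex term and without either KO-labelled library or Het-labelled replicate 1, with edgeR adjusted p up to 0.194. Syt12 was at 31.1, 27.5 and 15.7 CPM in the same groups. Syt4, the closest relative of Syt11, differed by 0.52 (edgeR adjusted p 0.464).

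The remaining lists gave few calls. Of 4 tested CAP superfamily genes, Clec18a rose by 2.48 and Glipr2 fell by 0.78 in the KO-labelled against the WT-labelled libraries. Over all tested genes 11.6% rose and 11.4% fell there, and the call of Glipr2 was kept in 9 of 16 alternatives. Crispld2 differed by 0.43 (edgeR adjusted p 0.475). Of 9 tested contactins and L1 family genes, edgeR called 0 in that comparison (1 had an unadjusted p under 0.05, and DESeq2 called 0), while Cntnap1 was higher in the Het-labelled than in the WT-labelled libraries by 1.41. Of 5 tested inward rectifier channels, 0 were called by edgeR or DESeq2 in any of the 4 comparisons, and 1 had an unadjusted p under 0.05 in KO- against WT-labelled libraries.

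**Figure D3:**
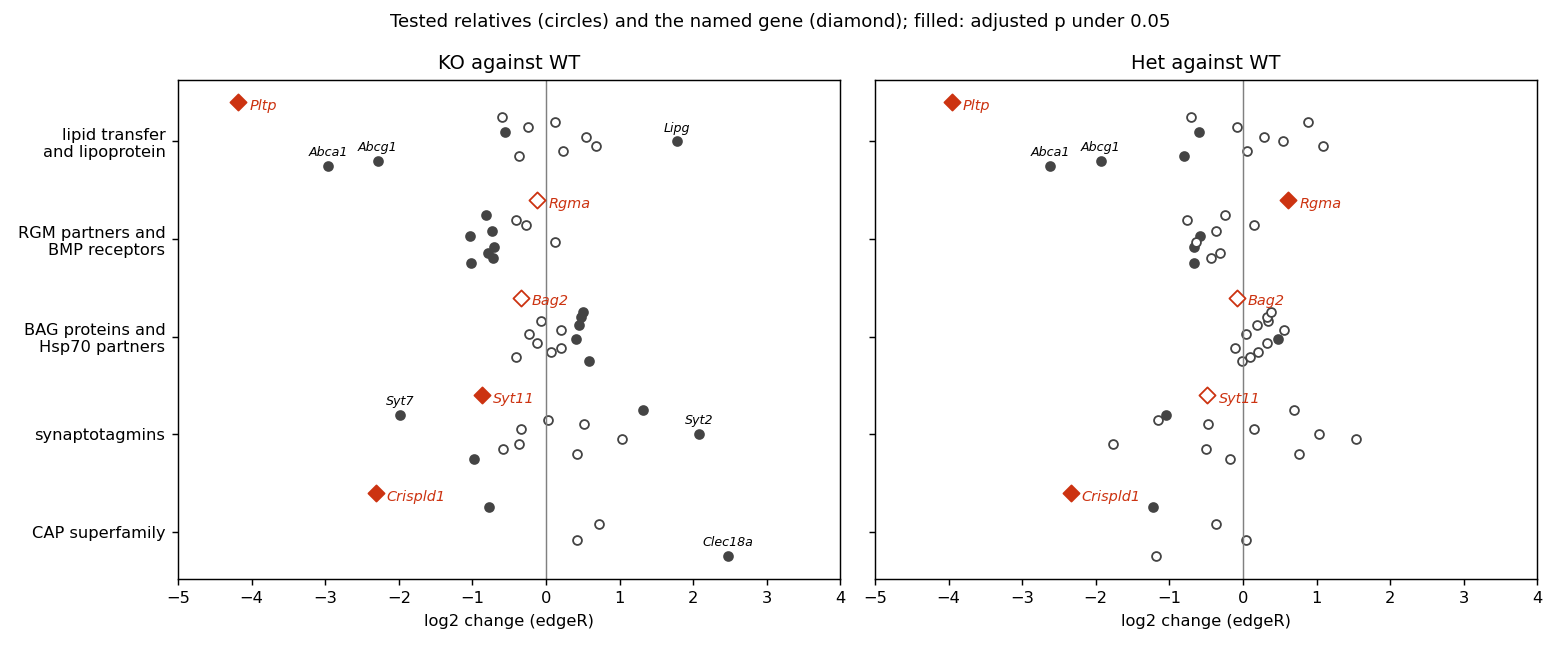
Log2 change (edgeR) of the tested genes of 5 lists (circles) and of the gene each list was built around (diamonds), in KO- and Het- against WT-labelled libraries; filled symbols have an adjusted p under 0.05. Pltp lies beside Abca1 and Abcg1 on the left, 7 receptors and partners of Rgma cluster near the list median of -0.73 in the KO-labelled libraries, and the 5 filled circles of the BAG list lie to the right of 0.

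In 3 of the 7 genes, an opposite-strand gene of the count table shares exonic bases. The strand setting of the counting is not given in the sources used here, so without it reads from a gene and its antisense partner cannot be told apart, and these genes are uncertain to that extent. The antisense gene Gm16070 shares 548 bases (12.1%) of the exonic sequence of Crispld1. From KO- to SmoM2-labelled libraries it was at 0.664 and 0.871 CPM, 2.94 and 2.72, 7.18 and 10.5, and 18.3 and 18.8. Gm16070 was lower in the KO- than in the Het-labelled libraries (log2 -1.86, SE 0.48, edgeR adjusted p 0.0339), on 3 and 4 KO-labelled counts, where Crispld1 differed by 0.03. Ctsa, which encodes the lysosomal protein cathepsin A, shares 495 bases (19.3%) with Pltp. It was at 154 and 123 CPM, 172 and 173, 183 and 197, and 204 and 215 in the same order. Ctsa fell by 0.46 between WT- and KO-labelled libraries (SE 0.13, edgeR adjusted p 0.0278), where Pltp fell by 4.18. A730056A06Rik shares 258 bases (4.65%) with Rgma and had at most 11 counts in any library.

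**Figure D4:**
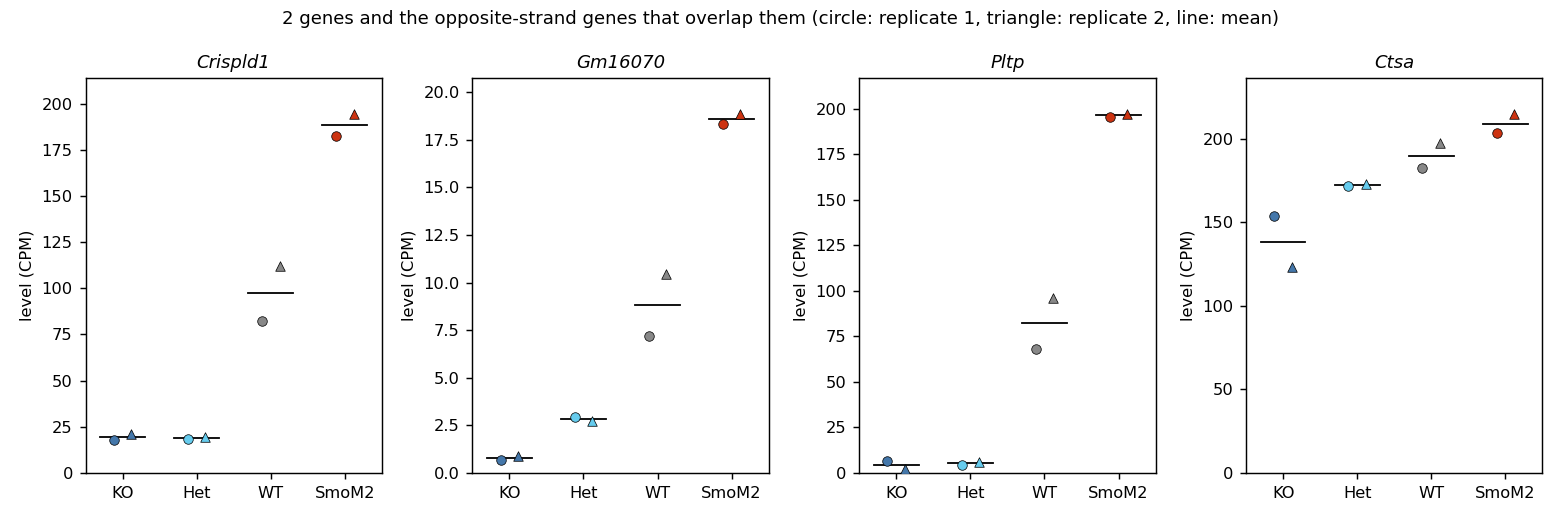
Level in CPM of Crispld1 and Pltp and of the opposite-strand genes that share exonic bases with them, by labelled genotype on axes that start at 0; circles are replicate 1, triangles replicate 2 and lines means of 2 libraries. Gm16070 is ordered across the 4 groups as labelled, up to 18.8 CPM, and Ctsa varies between 123 and 215 CPM.

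Markers of other cell types were read beside these results. The 12 stromal markers summed to 202 to 731 CPM (KO-labelled), 280 to 450 (Het-labelled), 356 to 550 (WT-labelled) and 570 to 699 (SmoM2-labelled). Foxd1, a defining stromal marker, was at 343 ± 59.4 CPM in SmoM2-labelled, 184 ± 17.8 in WT-labelled and 8.27 ± 6.46 in KO-labelled libraries (SD, n = 2). Meis1, also on the list, went the other way, at 14.4 CPM in WT-labelled and 92.4 CPM in KO-labelled libraries. Of 11 tested stromal markers, 1 (Foxd1) was called lower and 2 higher in KO- against WT-labelled libraries, beside 11.4% and 11.6% of all tested genes. Without Foxd1 the other 11 summed to 198 to 719 CPM (KO-labelled), 257 to 435 (Het-labelled), 185 to 353 (WT-labelled) and 269 to 314 (SmoM2-labelled), ranges that overlap. The 9 ureteric markers summed to 61.0 to 73.7 CPM in the SmoM2-labelled against 40.1 to 41.2 CPM in the WT-labelled libraries, with Wnt11 at 29.2 and 8.65 CPM. Without Wnt11 the other 8 summed to 36.9 to 39.5 and 30.3 to 33.7 CPM in the same groups. Neural and glial markers, of interest because Cntn2 and Syt11 are best known in neurons, summed to 23.1 to 30.4 CPM in the SmoM2-labelled and 25.6 to 30.3 CPM in the WT-labelled libraries, with 4 to 7 of 14 at 0. They summed to 38.0 to 39.9 CPM in the Het-labelled and 40.3 to 52.9 CPM in the KO-labelled libraries, with 5 to 9 of 14 at 0. The part of stromal, ureteric and neural cells in the levels of the 7 genes was not tested.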

How the data were processed

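Polyadenylated RNA of sorted nephron progenitors was measured in 8 libraries, 2 for each of 4 genotype groups taken from the labels. The authors deposited 1 table of raw counts per gene, with gene lengths and RPKM values, per the file headers. The submitters' processing notes name STAR, featureCounts, Subread and the mm10 build. Their versions, the annotation and the strand setting are not given in the sources used here. Dividing counts by length and RPKM returned the library totals behind the RPKM values, of which the listed counts made up 81.1% to 83.3%.

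The 7 genes, the gene lists and the comparisons were chosen with earlier results of these data known. Counts were tested in R 4.3.3 with edgeR 4.0.16. Genes were filtered with filterByExpr, which left 13459, and scaled by TMM. The quasi-likelihood fit used all 8 libraries and 1 mean per group (4 residual degrees of freedom, biological coefficient of variation 13.5%). Two-sided p-values were adjusted across the tested genes (Benjamini-Hochberg) and called under 0.05. SE is the one the test statistic implies. The script was tested on simulated data. CPM use the TMM-scaled library sizes, and log2 CPM a prior count of 2. A level at or under 3 counts per library was taken as the floor. With 2 libraries against 2 the smallest exact permutation p is 0.333, so no such test was run. Replicates of a group correlated at r of 0.974 to 0.984 across genes. Alternatives were DESeq2 1.42.0, other scalings, filters and samples, a replicate block, a sex term and leaving out each library.

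Named genes are the 7, the members of the lists, the 2 genes most like each of the 7 with an average log2 CPM of at least 1, the nearest protein-coding neighbours, and the last called and first not called gene of the choice. Overlapping antisense genes and the short motifs were added after values were seen. Some genes that the rule names are not reported here. Promoters are from RefSeq on GRCm38.p6.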

Additional observations from a re-analysis of the deposited data

How the results depend on the processing

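Of 432 values of the 7 genes under alternatives, 362 kept their direction and their side of the threshold. Values that changed sign were all uncalled differences between KO- and Het-labelled libraries. For Crispld1 they were -0.000935 with DESeq2 and -0.000829 with RLE factors, and leaving out a library gave -0.10 (without KO-labelled replicate 2) to 0.14, with -0.02 without Het-labelled replicate 1. For Pltp the change was 0.0185 with the sex term and -1.13 to 0.33 (without KO-labelled replicate 2), and for Cntn2 0.26 with the sex term and -3.41 to 0.49 (without KO-labelled replicate 1). The count of genes called between KO- and Het-labelled libraries, 1269, was 2217 with all counted genes in the test, and 36 (without Het-labelled replicate 1) to 1472 with a library left out. It was 376, 551 and 365 without KO-labelled replicate 1, KO-labelled replicate 2 and Het-labelled replicate 2. The count between KO- and WT-labelled libraries, 3100, was 1304 (without KO-labelled replicate 1) to 2924, with 1955 without WT-labelled replicate 2 and 2038 without WT-labelled replicate 1. The count between Het- and WT-labelled libraries, 3403, was 1401 (without Het-labelled replicate 2) to 3615, with 1468 without Het-labelled replicate 1 and 2089 without WT-labelled replicate 2. The count between SmoM2- and WT-labelled libraries, 30, was 82 with DESeq2, 356 with every gene tested, 54 with the sex term, 8 with only the 2 groups, and 8 (without WT-labelled replicate 1 or SmoM2-labelled replicate 1) to 81 (without WT-labelled replicate 2), with 9 without either KO-labelled library and 10 without SmoM2-labelled replicate 2. A lone library of a group is assumed to vary like the other groups. The causes were not tested. Cntn2 lost its call in 6 of 14 alternatives in KO- against WT-labelled and in 4 of 14 in Het- against WT-labelled libraries, and Syt11 gained one in 4 of 16 in Het- against WT-labelled libraries. With 0 or 1 count in each KO- and Het-labelled library, Kcnj15 and Cntn2 are limited by depth.

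The labels do not say that replicate numbers pair libraries, and with 2 numbers the data cannot settle it. Deviations from the group means correlated at r of 0.39 between same-numbered WT- and SmoM2-labelled libraries, which also share sex, and at -0.06 to 0.10 between the other groups. With a replicate block 1527, 3343, 3685 and 54 genes were called in the 4 comparisons, against 1269, 3100, 3403 and 30 without it.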

Other observations

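The nearest protein-coding neighbours of the 7 genes in RefSeq were read in the same fits, and the 10 of 14 that could be tested had edgeR adjusted p of 0.523 to 0.988 between SmoM2- and WT-labelled libraries. Rab23, which encodes a small GTPase known as a negative regulator of Hedgehog signalling, lies 2.92 kb from Bag2, and differed there by 0.05 on the log2 scale (edgeR adjusted p 0.988). Zfp451, on the other side of Bag2 at 3.79 kb, differed by 0.18 (edgeR adjusted p 0.849). Tmem81 lies 0.781 kb from Cntn2 and differed by 0.21 (edgeR adjusted p 0.957). Chd2, a chromatin remodeller gene 6.75 kb from Rgma, changed against the WT-labelled libraries by -0.70 in the KO-labelled (edgeR adjusted p 0.00446) and -0.43 in the Het-labelled libraries (edgeR adjusted p 0.0339), whereas Rgma differed by -0.12 and 0.62. Mctp2, on the other side of Rgma at 1068 kb, changed by -1.61 and -1.65 in the same comparisons (edgeR adjusted p 0.0297 and 0.0194). Pi15, a CAP superfamily relative 96.1 kb from Crispld1, and Kcnj6 and Erg beside Kcnj15 had too few counts to be tested. The mean level of Pi15 was at most 0.332 CPM in any group, while that of Crispld1 reached 188 CPM.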
